A study of Homo sapiens with 2 samples.

Results

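The 41 genes described here code for proteins that copy DNA in S phase, or that supply and guard that process, and they were chosen by name without the genes of origin licensing. All 41 were among the 16387 genes listed in both count tables, and all 41 were among the 11147 genes that passed a filter on low counts. They were followed in MCF10A, an established, non-tumorigenic line of human breast epithelial cells that needs epidermal growth factor (EGF) to proliferate. Cells were profiled by droplet single-cell RNA sequencing in 2 libraries, 1 for each biological replicate. Each library pooled 8 tagged conditions. These were unstimulated cells (0 h) and cells given EGF for 15 h, for 20 h or for 30 h. A MEK inhibitor (MEKi) or a PI3K inhibitor (PI3Ki) was added at 15 h of EGF to further cells, which were harvested at 20 h or at 30 h. The sources used here name neither the inhibitors nor their doses, nor the serum state of unstimulated cells. Both libraries come from the same line, so each condition has n = 2 sums of that line, and an exact two-sided permutation test of 2 sums against 2 cannot go below p = 0.333.

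Replication begins when the MCM ring that was loaded in G1 is joined by CDC45 and the GINS proteins to form the active helicase. Primase and polymerase alpha start new strands, the clamp loader RFC places the PCNA ring on DNA, and PCNA tethers polymerases delta and epsilon. RPA coats the single strands, and FEN1 and LIG1 trim and join Okazaki fragments. Ribonucleotide reductase, thymidylate synthase, thymidine kinase and dUTPase supply the nucleotides, and chaperones such as CAF-1 and NASP supply histones to the new DNA. In normal epithelial cells the MEK and PI3K pathways act below growth factor receptors to raise cyclin D levels, which frees E2F factors, and E2F factors drive many of these genes in late G1.

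Promoter letters are shown because E2F control is what these genes are best known to share. RefSeq promoters (GRCh38.p14, 250 bases before to 50 after the start, 300 bases in all) were matched for 34 of the 41 genes. No entry was matched for DSCC1, POLD3, RPA2, RPA3, ATAD2, WDR76 and FAM111B. The E2F-type letters searched, on both strands, were TTTCGCGC, TTTGGCGC, TTTCCCGC, TTTGGCGG and TTCCCGCC, of which TTTCCCGC and TTCCCGCC can overlap. At least 1 of these occurred in 22 of 34 promoters (64.7%), against 5.70% of all 27305 promoters in the table and 9.84% of the 8727 promoters of tested genes. Only genes with a match before the start were taken for display, and FEN1, RRM2, DUT, NASP, USP1 and UNG had no match. The following stretches come from 1 gene of each role, 5′ to 3′ on the gene's strand, with the matched letters in capitals.
PCNA (chr20:5126623-5126772, minus strand): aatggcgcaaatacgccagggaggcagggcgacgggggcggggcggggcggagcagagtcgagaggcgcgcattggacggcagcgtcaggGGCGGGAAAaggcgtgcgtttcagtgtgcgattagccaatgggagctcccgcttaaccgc
POLA1 (chrX:24693768-24693917, plus strand): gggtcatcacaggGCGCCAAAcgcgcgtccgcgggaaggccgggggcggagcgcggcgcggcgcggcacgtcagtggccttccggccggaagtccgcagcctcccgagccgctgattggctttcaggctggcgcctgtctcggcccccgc
HELLS (chr10:94545638-94545787, plus strand): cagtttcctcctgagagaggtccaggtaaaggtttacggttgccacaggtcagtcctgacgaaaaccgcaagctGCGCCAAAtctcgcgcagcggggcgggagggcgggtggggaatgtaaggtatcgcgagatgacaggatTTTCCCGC
GINS2 (chr16:85688968-85688997, minus strand): gctctcgccgtGGCGGGAAAacggcggccg
LIG1 (chr19:48170440-48170469, minus strand): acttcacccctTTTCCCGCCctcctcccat
RRM1 (chr11:4094451-4094480, plus strand): caagaaaaacgTTCCCGCCggttaggtttt
DTL (chr1:212035729-212035758, plus strand): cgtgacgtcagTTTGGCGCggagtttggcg
RAD51AP1 (chr12:4538857-4538886, plus strand): gtctggttttgGGCGGGAAttgaaaccgcc
The first match began 8 bases before the RefSeq start in DTL, 60 bases before it in PCNA and 223 bases before it in RRM1. The stretches of GINS2, LIG1, DTL and RAD51AP1 lie within exons of the GENCODE v29 models, which start further upstream. CCAAT, the box bound by NF-Y, occurred on either strand in 20 of 34 promoters (58.8%), against 35.7% of all promoters and 37.55% of those of tested genes. The CHR-type letters TTTGAA or TTCGAA, known from genes of G2 and mitosis, occurred in 1 of 34 (2.94%, in RRM1). They occurred in 16.6% of all promoters and in 10.95% of those of tested genes. A match describes letters in a window and is not a measured binding site.

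The count tables held 2616 and 2221 cells with 33089090 and 28542571 unique molecular identifiers (UMIs, each standing for 1 captured transcript). No barcode was shared by the libraries. UMIs were summed per library and condition and are given as CPM (UMIs of a gene per 1e6 UMIs of the sum). Unstimulated and 15 h cells of library 2 were few, at 29 and 64. Median depth per cell ran from 7024 to 16000 UMIs over the 16 sums and was highest in cells given EGF for 30 h, and its part in the results was not tested apart from the thinned counts given further on. All 10 basal epithelial markers were found, at 14386 to 31754 CPM in sum. Luminal markers (4 of 5 found, 3.03 to 18.8 CPM) and endothelial markers (2 of 4, at most 4.88 CPM) were low. Fibroblast markers were found for 2 of 6 genes (COL1A1 and DCN, 6.96 to 96.3 CPM in sum) and leukocyte markers for 3 of 6 (CD14, CD68 and LYZ, 7.52 to 37.5 CPM), and PTPRC, CD3E and MS4A1 were not listed in both tables. Basal, fibroblast and leukocyte sums moved with several comparisons and are given beside some of these. Both libraries come from the same line, and these sums are levels of marker genes, not counts of cells of those types. Their part in the results was not tested.

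Levels of the S phase genes rose with EGF, were highest at 20 h for most genes, and fell for 18 of 41 by 30 h. Summed over the 41 genes, libraries 1 and 2 held 562 and 1107 CPM before EGF, then 1422 and 1966 CPM at 15 h, 2880 and 3282 CPM at 20 h, and 2430 and 2408 CPM at 30 h. Both 20 h sums lay above both sums of every other time. Along the EGF course the mean level peaked at 20 h for 32 genes, at 30 h for 8 (RFC5, POLA1, CDC45, RPA3, RRM1, RRM2, TYMS and TK1) and at 15 h for 1 (GINS3). Both libraries put the peak at 20 h for 26 genes and at 30 h for 5. Genes were called where edgeR's quasi-likelihood test, fitted on all 11147 genes with the library as a block, gave a Benjamini-Hochberg adjusted p under 0.05.

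**Figure D1:**
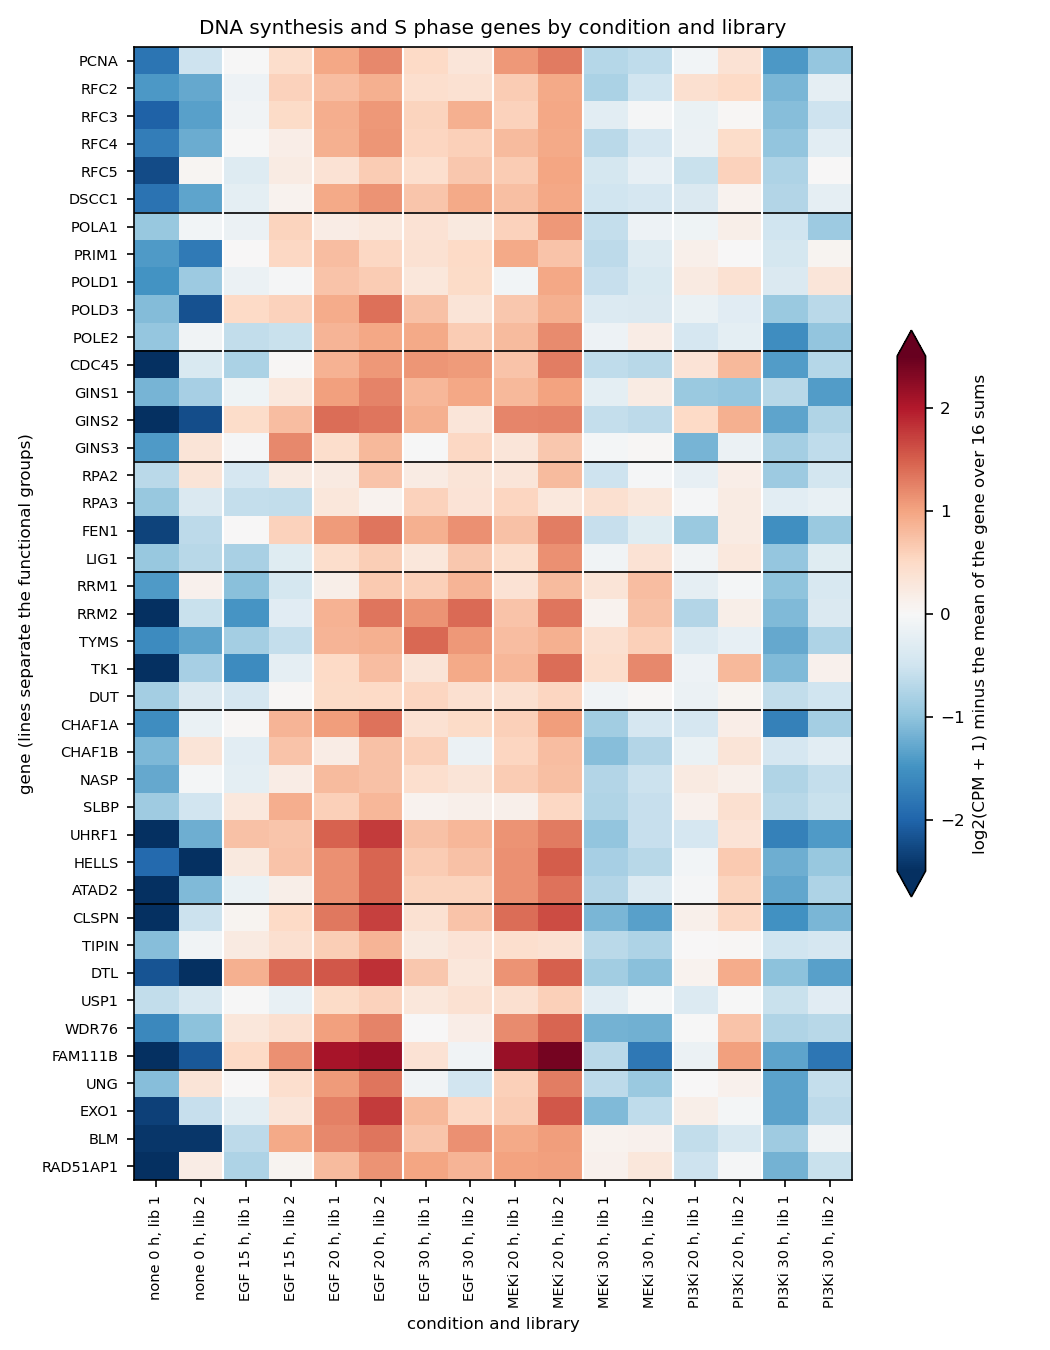
Level of each of the 41 genes (rows, grouped by role) in each condition and library (columns), coloured by log2(CPM + 1) minus the gene's mean over the 16 sums. The columns of EGF at 20 h and MEKi at 20 h are red nearly throughout, whereas unstimulated cells and both 30 h inhibitor conditions are mostly blue.

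At 15 h, 24 of 41 genes were higher than in unstimulated cells and none was lower, where 14.1% of all genes tested were called higher and 13.9% lower. Their median log2 fold change was 1.43, against 0.02 over all genes. PCNA, the sliding clamp (chr20:5114953-5126626 on GRCh38), stood at 57.9 and 145 CPM unstimulated and at 206 and 283 CPM at 15 h. The 15 h values lay above the unstimulated ones in both libraries, and the log2 fold change was 1.44 ± 0.19 (SE). All 6 clamp and loader genes rose, as did POLD3 (1.60), PRIM1 (1.48), FEN1 (1.93), UHRF1 (3.20), HELLS (2.27) and CLSPN (2.26). Of the nucleotide genes RRM2 rose (1.11), while RRM1 (-0.05 ± 0.24), DUT (0.27 ± 0.15), TYMS (0.57 ± 0.33) and TK1 (1.47 ± 0.63) were not called. RPA2 (-0.01 ± 0.25), RPA3 (0.05) and LIG1 (0.00 ± 0.44) were not called either.

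Several genes were close to absent before EGF. BLM, a DNA helicase of repair, had 0 counts in both unstimulated sums and was at least 1.71-fold higher at 15 h, taking a floor of 3 counts over the group. With BLM at that bound the median of the 41 genes at 15 h was again 1.43. FAM111B, a protease linked to replication, had 2 unstimulated counts, and its 15 h level was 29.4 times that (95% counting interval 8.05 to 244). GINS2 had 3 counts and a ratio of 19.7 (6.65 to 96.1), and DTL, which directs replication factors to degradation, had 3 counts and a ratio of 14.2 (4.76 to 69.3). These intervals cover counting error only. The 15 h calls depend on the unstimulated sum of library 1: without it few of the 41 genes were called, and calls over all genes fell as well. Taken singly, libraries 1 and 2 gave median log2 changes of 1.47 and 0.87, with 35 of the 41 genes higher in both. In the same comparison the fibroblast marker sum, nearly all of it DCN, was 96.3 and 93.8 CPM unstimulated and 17.5 and 7.87 CPM at 15 h.

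Between 15 h and 20 h, 33 of 41 genes rose and none fell, where 3.44% of all genes were called higher and 1.66% lower, and the median log2 change was 0.85. All 5 nucleotide supply genes rose, with a median of 1.64. RRM2, the regulated subunit of ribonucleotide reductase, went from 19.5 and 45.6 CPM to 103 and 143 CPM. Its 20 h values were higher in both libraries, by 2.15 ± 0.16 on the log2 scale (adjusted p = 2.1e-14, edgeR quasi-likelihood test). TK1, thymidine kinase of the salvage pathway, stood at 8.02 and 22.0 CPM at 15 h and at 36.7 and 44.6 CPM at 20 h, a rise of 1.80 ± 0.22. The 4 repair genes rose, and BLM (1.75 ± 0.34) was the highest of them. SLBP (0.18 ± 0.11), POLA1 (0.20 ± 0.35) and GINS3 (0.29 ± 0.37) changed least and were not called. Without the 15 h sum of library 1 far fewer of the 41 genes were called, and calls over all genes fell as well. Taken singly, libraries 1 and 2 gave medians of 0.93 and 0.72, with 36 genes higher in both.

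From 20 h to 30 h with EGF alone, 18 genes fell (3.27% of all genes did) and 1 rose (4.51% of all genes did), with a median of -0.41. The genes that fell lay mostly in 2 roles. In the histone supply and chromatin group 6 of 7 fell, CHAF1B being the exception. In the group of fork protection, checkpoint and ubiquitin control (CLSPN, TIPIN, DTL, USP1, WDR76 and FAM111B) 5 of 6 fell, USP1 being the exception. FAM111B stood at 102 and 108 CPM at 20 h and at 30.7 and 22.1 CPM at 30 h (-2.04 ± 0.18). UNG, which removes uracil from DNA (chr12:109097574-109110992), stood at 39.8 and 48.2 CPM and then at 17.3 and 12.9 CPM, with no overlap of the times (-1.59 ± 0.18). DTL fell by 1.29 ± 0.17. No gene of the nucleotide group or of the group that binds single strands and joins Okazaki fragments fell. TYMS, which makes thymidylate, was 87.8 and 89.6 CPM at 20 h and 132 and 103 CPM at 30 h, and its rise of 0.37 ± 0.11 (adjusted p = 0.029, edgeR) was not called with DESeq2 (adjusted p = 0.21) or without the 30 h sum of library 1 (log2 change 0.09, adjusted p = 0.85). Without the 30 h sum of library 2, 11 genes were called in this interval in place of 19. From 20 h to 30 h all 20 genes of a G2/M list rose, with a median of 1.53.

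**Figure D2:**
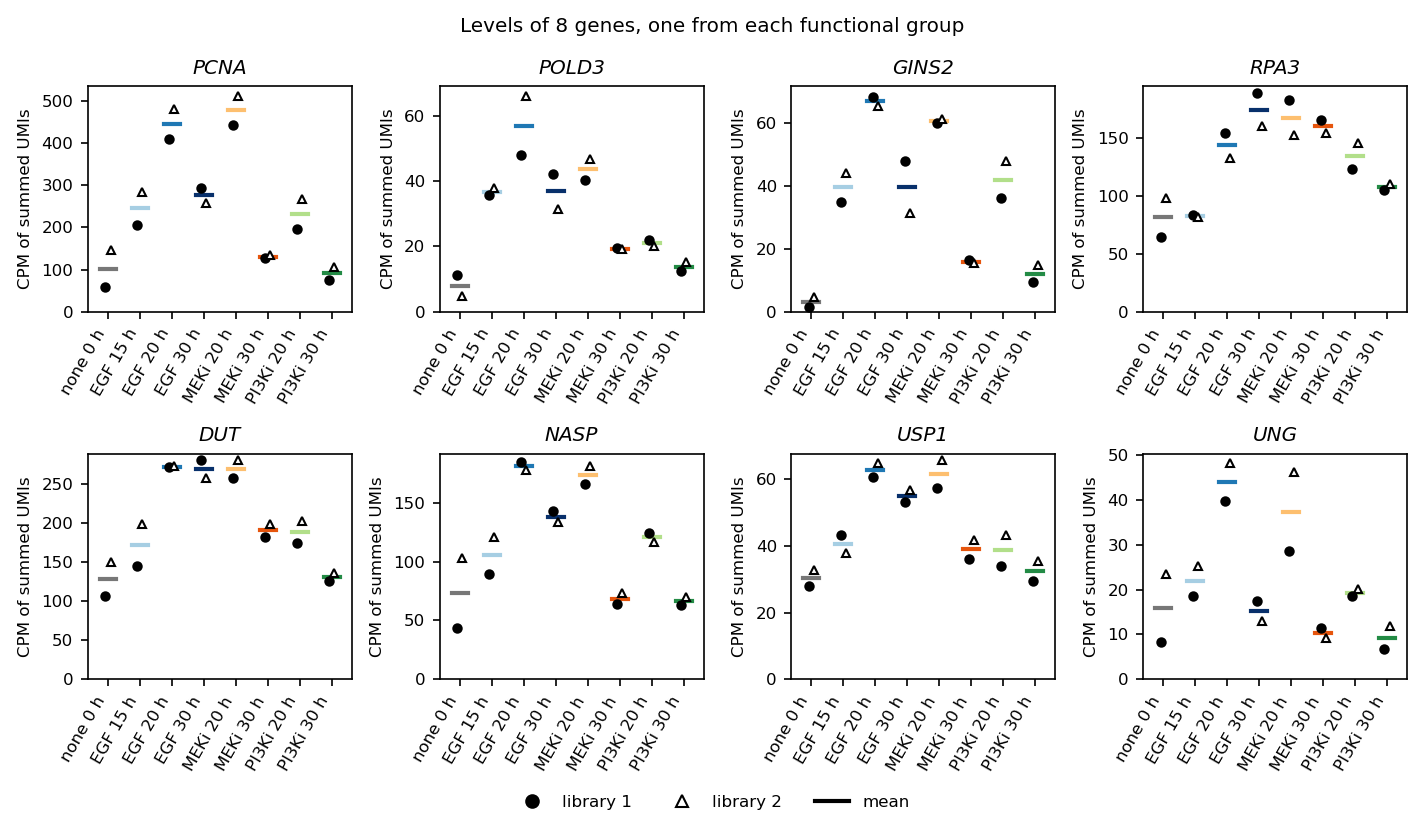
CPM of 8 genes, the one of highest mean level in each role, in the 8 conditions, with a point for each library and a line at the mean of 2. In all of these genes but RPA3 the mean at 20 h with EGF or with MEKi is the highest, and RPA3 with MEKi at 30 h (166 and 154 CPM) stays near EGF alone (189 and 160 CPM).

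Inhibiting MEK from 15 h left the 20 h levels of these genes close to those with EGF alone. The summed level was 2761 and 3298 CPM with MEKi, which enclose the 2880 and 3282 CPM with EGF alone. Only TK1 was called higher and only SLBP lower, where 4.8% of all genes were called higher and 7.15% lower, and the median log2 fold change was 0.00. PCNA stood at 442 and 512 CPM with MEKi and at 410 and 479 CPM without it, higher with MEKi within each library, and was not called (0.16 ± 0.11). TK1 stood at 46.8 and 69.4 CPM against 36.7 and 44.6 CPM, with both MEKi values above both EGF values (0.49 ± 0.15, adjusted p = 0.021, edgeR). SLBP, which binds the stem-loop of histone mRNA, stood at 86.7 and 113 CPM against 120 and 141 CPM (-0.33 ± 0.11, adjusted p = 0.033, edgeR). Neither call was made with DESeq2 (adjusted p = 0.12 for each), and TK1 was not called with library totals (0.44, adjusted p = 0.056). Leaving out any 1 of the 4 sums of this comparison took the count of called genes from 2 to 0 or 1: TK1 was not called without the library 2 sum of EGF at 20 h (0.24, adjusted p = 0.48), nor SLBP without the library 1 sum of MEKi at 20 h (-0.25, adjusted p = 0.34). UHRF1 (-0.35 ± 0.13), CHAF1A (-0.34 ± 0.14), DTL (-0.31 ± 0.17), LIG1 (0.32 ± 0.17), RFC5 (0.35 ± 0.20) and POLA1 (0.76 ± 0.30) were the next in size and were not called. Fibroblast markers stood at 28.9 and 20.0 CPM with MEKi at 20 h against 14.4 and 11.2 CPM with EGF alone. Leukocyte markers stood at 22.4 and 16.4 CPM against 29.3 and 23.2 CPM, and basal markers at 21268 and 25222 CPM against 17292 and 22519 CPM. Against the cells at 15 h, when the inhibitor was added, 33 genes were higher after 5 further hours with MEKi and none lower, where 10.5% and 10.4% of all genes were, with a median of 0.91. RRM2 (2.13 ± 0.17), TK1 (2.29 ± 0.22) and POLE2 (1.83 ± 0.36) rose most, and SLBP (-0.15), TIPIN (0.12) and GINS3 (0.16) were not called. Fewer of the 41 genes were called without the 15 h sum of library 1, as were fewer of all genes. Taken singly, libraries 1 and 2 gave medians of 0.88 and 0.82, with 39 genes higher in both.

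By 30 h the picture with MEKi had changed: 34 of 41 genes were lower than with EGF alone, where 19% of all genes tested were, and the median log2 fold change was -0.79, against 0.01 over all genes. Summed over the 41 genes, the level was 1290 and 1485 CPM with MEKi against 2430 and 2408 CPM with EGF alone, with no overlap. In the same sums basal markers stood at 26166 and 31754 CPM with MEKi against 14386 and 18710 CPM, fibroblast markers at 49.0 and 23.6 CPM against 13.3 and 9.19 CPM, and leukocyte markers at 7.94 and 7.52 CPM against 25.1 and 21.1 CPM. Most of the leukocyte difference was in CD14, at 3.18 and 5.41 CPM against 18.7 and 16.6 CPM. All 6 clamp and loader genes were lower. PCNA stood at 127 and 134 CPM with MEKi and at 293 and 258 CPM without (-0.91 ± 0.11). DSCC1, a factor of an alternative clamp loader, fell by 1.18 ± 0.14 on the log2 scale.

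Among helicase partners CDC45 stood at 11.6 and 11.2 CPM with MEKi at 30 h and at 40.8 and 39.9 CPM with EGF alone. The MEKi values were below both EGF values (log2 fold change -1.68 ± 0.17, adjusted p = 1.2e-11, edgeR). GINS2 (chr16:85676198-85690073) stood at 16.3 and 15.6 CPM against 48.0 and 31.5 CPM (-1.11 ± 0.17), and GINS1 fell by 0.75 ± 0.20, while GINS3, at 3.40 and 3.64 CPM against 3.47 and 5.47 CPM, was not called (-0.22 ± 0.34). Of the polymerase genes POLD1, PRIM1, POLD3 and POLE2 were lower (-0.64 to -0.79), and POLA1 was not called (-0.53 ± 0.30). POLD3 (chr11:74493851-74669117) stood at 19.5 and 19.2 CPM against 42.2 and 31.5 CPM.

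All 7 histone and chromatin genes and all 6 genes of fork protection, checkpoint and ubiquitin control were lower with MEKi at 30 h. CLSPN, the adaptor that lets ATR activate CHK1, stood at 12 and 10.1 CPM against 36.5 and 45.9 CPM. It differed most of the 41 genes, by -1.79 ± 0.16 (adjusted p = 2.3e-13, edgeR). NASP, a histone H3 and H1 chaperone (chr1:45583846-45618904), stood at 63.8 and 73.0 CPM against 142 and 134 CPM (-0.83 ± 0.11). UHRF1, which reads hemimethylated DNA, fell by 1.42 ± 0.15, and EXO1, an exonuclease of mismatch repair, fell by 1.51 ± 0.27.

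Genes of nucleotide supply (3 of 5 lower, median -0.32) and of single-strand binding and Okazaki joining (2 of 4 lower, median -0.25) were uneven. FEN1, the flap endonuclease, stood at 39.7 and 48.3 CPM with MEKi at 30 h against 110 and 132 CPM (-1.30 ± 0.12). RRM2 stood at 59.0 and 92.6 CPM against 123 and 151 CPM (-0.69 ± 0.11), and TYMS at 63.3 and 73.0 CPM against 132 and 103 CPM (-0.59 ± 0.11). Neither MEKi value of these 3 genes reached an EGF value. RRM1, the large subunit of ribonucleotide reductase, stood at 87.1 and 118 CPM with MEKi at 30 h and at 104 and 126 CPM with EGF alone (0.01 ± 0.10). RPA3 (chr7:7636518-7718607) stood at 166 and 154 CPM against 189 and 160 CPM (0.06 ± 0.10), and LIG1 differed by -0.16 ± 0.16. None of these 3 was called. DUT (chr15:48331011-48343373), which clears dUTP, stood at 182 and 199 CPM against 280 and 258 CPM and was lower by a small amount (-0.32 ± 0.09), as were USP1 (-0.31 ± 0.12) and RPA2 (-0.33 ± 0.13). TK1 was the 1 gene called higher (0.38 ± 0.14, adjusted p = 0.023, edgeR, where 18.9% of all genes were called higher). It stood at 35.4 and 60.2 CPM against 32.5 and 50.6 CPM with EGF alone, higher with MEKi within each library although the groups overlap across libraries, and it was not called with sums scaled by library totals in place of TMM, the trimmed mean of ratios (0.20, adjusted p = 0.26), or with DESeq2 (adjusted p = 0.16). Library totals shift the median of all genes by -0.16 in this comparison, by -0.14 for PI3Ki at 20 h, by -0.22 for PI3Ki at 30 h and by 0.21 for EGF at 15 h, and with them RRM1 and RPA3 took values of -0.17 and -0.12 with MEKi at 30 h. All genes called higher and lower then numbered 1349 and 3259 for MEKi at 30 h, 796 and 2177 for PI3Ki at 20 h, 1268 and 3688 for PI3Ki at 30 h and 2260 and 1152 for EGF at 15 h.

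**Figure D3:**
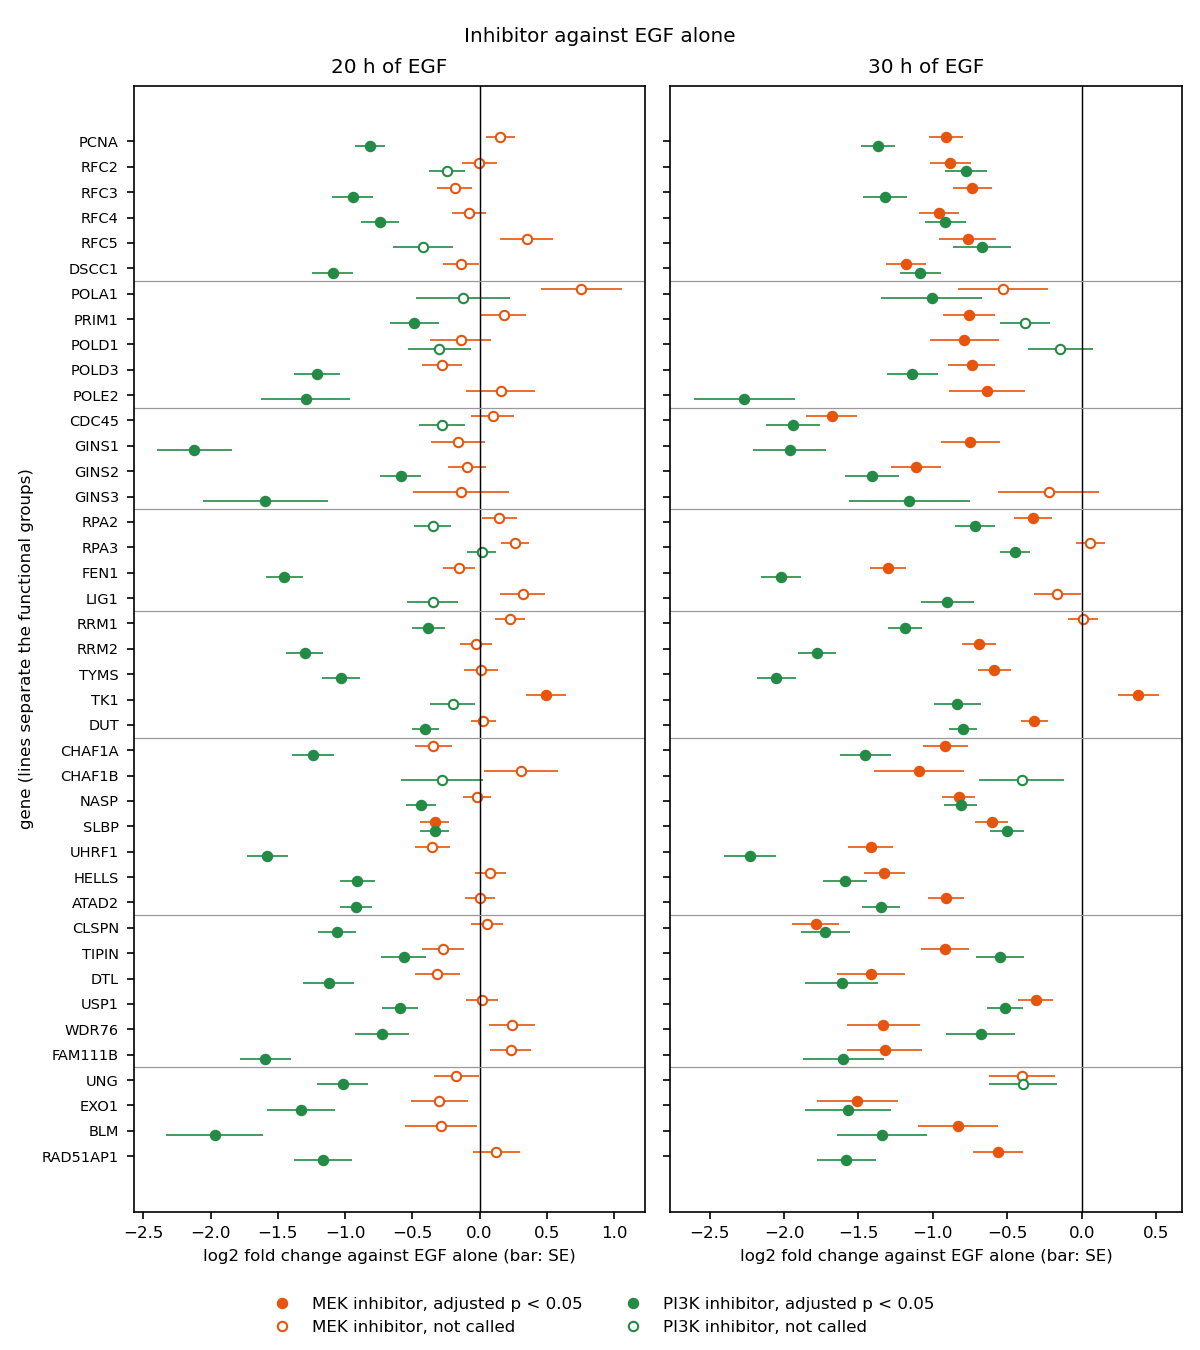
Log2 fold change of each gene with either inhibitor against EGF alone, at 20 h (left) and 30 h (right), with bars of 1 SE. Filled points passed an adjusted p of 0.05. The MEKi points lie around 0 at 20 h (median 0.00) and mostly below it at 30 h (median -0.79), and those of PI3Ki lie below 0 at both times (medians -0.81 and -1.16).

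With PI3K inhibited from 15 h, most of these genes were already lower at 20 h. The summed level was 1502 and 1960 CPM, below both EGF values, and 31 of 41 genes were lower and none higher, where 11.9% of all genes were called lower and 11.4% higher (median -0.81, against 0.00 over all genes). GINS1 stood at 4.31 and 4.13 CPM with PI3Ki and at 19.4 and 22.8 CPM with EGF alone. Both PI3Ki values were lower (log2 fold change -2.12 ± 0.28, adjusted p = 6e-08, edgeR). BLM (-1.97 ± 0.36), FAM111B (-1.59 ± 0.19) and GINS3 (-1.59 ± 0.47) followed. PCNA stood at 197 and 268 CPM against 410 and 479 CPM (-0.81 ± 0.11), and NASP at 124 and 117 CPM against 185 and 177 CPM (-0.44 ± 0.11). All 4 repair genes and all 6 genes of fork protection, checkpoint and ubiquitin control were lower. RPA3 (0.02 ± 0.11), POLA1 (-0.12 ± 0.35), TK1 (-0.20 ± 0.17) and RFC2 (-0.24 ± 0.14) differed least and were not called, nor were RFC5, LIG1, RPA2, POLD1, CDC45 and CHAF1B. Without the library 1 sum of PI3Ki at 20 h, 20 genes were called in place of 31. Leukocyte markers stood at 12.7 and 11.9 CPM with PI3Ki at 20 h against 29.3 and 23.2 CPM with EGF alone. Of these, CD14 stood at 6.85 and 4.64 CPM against 21.7 and 18.1 CPM. CD68 stood at 5.84 and 7.22 CPM against 7.60 and 4.71 CPM. Fibroblast markers stood at 23.6 and 17.5 CPM against 14.4 and 11.2 CPM.

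Set against the 15 h cells from which they started, cells with PI3Ki for 5 h were higher in 10 genes and lower in 4, where 10% and 9.34% of all genes were, with a median of 0.11. The 10 included all 5 nucleotide supply genes (TK1 1.60 ± 0.24, RRM2 0.85 ± 0.19, RRM1 0.79, TYMS 0.61, DUT 0.31), CDC45 (1.28 ± 0.23), LIG1 (0.82), RPA3 (0.79), RFC2 (0.45) and NASP (0.41). GINS1 (-0.97 ± 0.35), UHRF1 (-0.83 ± 0.18), POLD3 (-0.68 ± 0.19) and FEN1 (-0.55 ± 0.16) were lower, and GINS3 (-1.30 ± 0.53) was not called. GINS1 was not called with DESeq2 (adjusted p = 0.095). Without the 15 h sum of library 1 the count was 1 in place of 14, and without the library 1 sum of PI3Ki at 20 h it was 4.

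At 30 h with PI3Ki, 37 of 41 genes were lower than with EGF alone (20% of all genes were) and none was higher (19.7% were), with a median of -1.16, against 0.01 over all genes. The summed level was 831 and 1085 CPM against 2430 and 2408 CPM, and leukocyte markers stood at 9.94 and 8.54 CPM against 25.1 and 21.1 CPM. TYMS stood at 19.2 and 27.7 CPM against 132 and 103 CPM, with no overlap (-2.05 ± 0.13, adjusted p = 1.5e-18, edgeR). FEN1 stood at 19.9 and 30.9 CPM against 110 and 132 CPM (-2.02 ± 0.13). POLE2, a subunit of the leading-strand polymerase, stood at 1.08 and 2.06 CPM against 10.7 and 8.41 CPM (-2.27 ± 0.34), and UHRF1 differed by -2.23 ± 0.18. PCNA stood at 75.8 and 106 CPM (-1.37 ± 0.12) and DUT at 126 and 136 CPM (-0.80 ± 0.10). RPA3 was lower here too, at 105 and 110 CPM (-0.45 ± 0.10). The 4 genes that were not called were CHAF1B (-0.40 ± 0.29), UNG (-0.40 ± 0.23), PRIM1 (-0.38 ± 0.17) and POLD1 (-0.14 ± 0.22). MEKi and PI3Ki at a given time share their EGF-alone sums, so the likeness of their lists of lower genes is not a separate result.

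Whether an inhibitor's effect changed between 20 h and 30 h was tested as an interaction. For MEKi the effect at 30 h was lower than at 20 h for 21 of 41 genes (2.66% of all genes) and higher for none (2.92%), with a median of -0.80. CLSPN went from 74.1 and 87.4 CPM with MEKi at 20 h to 12 and 10.1 CPM at 30 h, and from 70.3 and 92.1 CPM to 36.5 and 45.9 CPM with EGF alone. Its MEKi values fell further than its EGF values in both libraries (interaction -1.84 ± 0.20). CDC45 (-1.78 ± 0.24), WDR76 (-1.58 ± 0.30) and FAM111B (-1.56 ± 0.29) followed. For PI3Ki 7 genes differed between the times (3.25% of all genes were lower and 2.4% higher), all with a lower effect at 30 h, among them CDC45 (-1.66 ± 0.26) and TYMS (-1.02 ± 0.20), and the median was -0.38. This count was 3 when any 1 of 4 sums was left out (library 1 of EGF or PI3Ki at 30 h, library 2 of EGF or PI3Ki at 20 h), 12 without the library 2 sum of EGF at 30 h, and 3 with DESeq2. POLE2 (-0.97 ± 0.52) and POLA1 (-0.89 ± 0.49) were not called. Within MEKi 36 genes fell from 20 h to 30 h (9.29% of all genes did) and none rose (12% did), with a median of -1.23 and the lowest value in FAM111B (-3.60 ± 0.21). TK1 (-0.18 ± 0.14), RPA3 (0.04 ± 0.10) and RRM1 (0.08 ± 0.11) were not called, nor were TYMS and GINS3. Within PI3Ki 25 genes fell (5.6% of all genes did) and none rose (5.49% did), with a median of -0.68, led by FAM111B (-2.05 ± 0.28), DTL (-1.78 ± 0.27) and CLSPN (-1.65 ± 0.18).

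Compared directly, MEKi cells had higher levels than PI3Ki cells at 20 h for 33 of 41 genes (11.2% of all genes), with none lower (10.4% of all genes) and a median of 0.85. GINS1 stood at 16.7 and 19.3 CPM with MEKi and at 4.31 and 4.13 CPM with PI3Ki (1.96 ± 0.30). FAM111B (1.82 ± 0.20) and BLM (1.68 ± 0.40) followed, and SLBP (0.00 ± 0.12), POLD1 (0.16 ± 0.26) and RFC2 (0.24 ± 0.14) were not called. Without the library 1 sum of PI3Ki at 20 h, 20 genes were called in place of 33. At 30 h the difference was smaller and uneven over the roles, with 17 genes higher (21.2% of all genes), 2 lower (20.3% of all genes) and a median of 0.39. The genes that were higher included all 5 nucleotide supply genes and all 4 genes of single-strand binding and Okazaki joining. TYMS stood at 63.3 and 73.0 CPM with MEKi against 19.2 and 27.7 CPM with PI3Ki (1.46 ± 0.13, adjusted p = 2.9e-13, edgeR). RRM1 stood at 87.1 and 118 CPM against 34.1 and 51.9 CPM (1.19 ± 0.11), and TK1 at 35.4 and 60.2 CPM against 11.5 and 27.7 CPM (1.22 ± 0.15). Both MEKi values of each of these 3 genes exceeded both PI3Ki values. POLE2 (1.63 ± 0.36) and GINS1 (1.21 ± 0.26) were also higher. None of the 6 genes of fork protection, checkpoint and ubiquitin control was higher. WDR76 (4.08 and 4.0 CPM against 5.83 and 6.17 CPM, -0.65 ± 0.27) and POLD1 (-0.64 ± 0.23) were lower, and neither call was made with DESeq2 (adjusted p = 0.11 and 0.13).

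Against unstimulated cells, 17 genes were still higher with MEKi at 30 h (9.88% of all genes, median 1.12) and 10 with PI3Ki at 30 h (10.7% of all genes, median 0.72). None was lower in either, where 8.27% and 10.5% of all genes were. TK1 (3.58 ± 0.46) was among the highest with MEKi, and RRM1 (1.42), TYMS (2.00) and RRM2 (2.71) were higher too. With PI3Ki, RRM2 (1.63) and TK1 (2.37) were higher, and POLE2 (-0.68 ± 0.82), RPA2 (-0.38 ± 0.25) and UNG (-0.26 ± 0.44) were not called. SLBP (-0.02 ± 0.20), CHAF1B (-0.22 ± 0.69) and UNG (-0.27 ± 0.43) were not called with MEKi. Each of these counts was 0 without the unstimulated sum of library 1. Without the library 2 sum of PI3Ki at 30 h, 5 genes were called with PI3Ki in place of 10.

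A sum over cells cannot tell fewer expressing cells from less RNA in each cell, so the 41 genes were also summed in every single cell, after thinning each cell to 6500 UMIs and leaving out shallower cells, which numbered 12 to 53 in a condition and library. Median sums in libraries 1 and 2 were 3 and 6 UMIs before EGF and, with EGF alone, 6 and 12 UMIs at 15 h, 20 and 23 UMIs at 20 h, then 14 and 15 UMIs at 30 h. With MEKi the medians were 15 and 22.5 UMIs at 20 h, then 5 and 9 UMIs at 30 h. With PI3Ki these were 6 and 10 UMIs, then 4 and 5 UMIs. The spread between cells at 20 h was wide: the lower and upper quartiles were 7 and 28 UMIs with EGF alone in library 1 and 5 and 29 UMIs with MEKi. Cells above the library's own median of EGF-treated cells at 20 h (over 20 and over 23 UMIs) were counted as high, which marks a range of a score and not a cell type. Up to 15.2% of the cells of a condition lay within 2 UMIs of that limit.

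**Figure D4:**
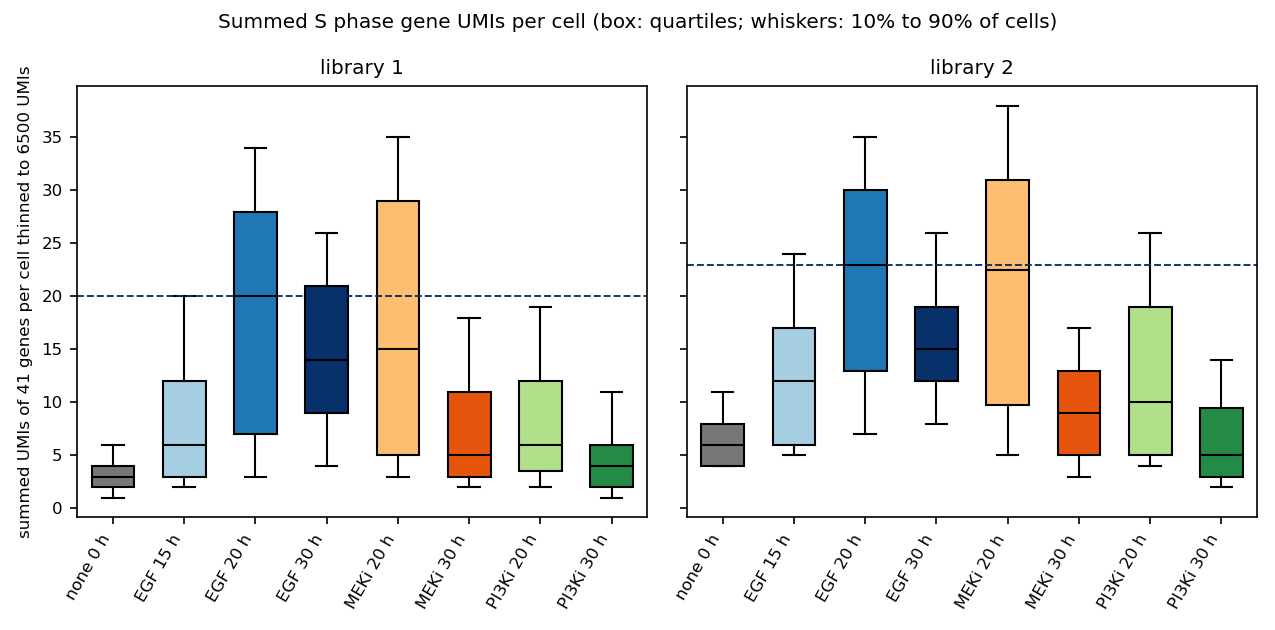
Summed UMIs of the 41 genes per cell thinned to 6500 UMIs (boxes: quartiles and median, whiskers: 10% to 90% of cells), by condition in each library. The dashed line is the median at 20 h with EGF alone (20 and 23 UMIs), which the upper quartile with MEKi passes at 20 h and does not reach at 30 h.

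At 20 h, 39.1% of 192 and 46.4% of 224 cells with MEKi were high, against 48.1% of 420 and 46.9% of 196 with EGF alone and 9.0% of 311 and 18.1% of 149 with PI3Ki. The exact Clopper-Pearson 95% intervals of the PI3Ki shares were 6.07% to 12.7%, and 12.3% to 25.3%, and cover counting error within a library only. The share with EGF alone at 20 h is fixed by the limit, which is the median of those same cells, so no interval is set against it. At 30 h, 26.0% of 223 and 13.5% of 325 cells were high with EGF alone, 4.72% of 318 and 2.28% of 569 with MEKi, and 1.72% of 348 and 1.77% of 451 with PI3Ki. Both inhibitors lay below EGF alone in both libraries at 30 h. In unstimulated cells the share was 0.730% of 137 in library 1 and 0 of 17 in library 2, which allows up to 19.5%. Mean shares without thinning were 49.9% with EGF and 45.1% with MEKi at 20 h, and 22.0% and 4.19% at 30 h.

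Cells were also split by a summed list of 20 G2/M genes, at the median of EGF-treated cells at 30 h (13 and 25 UMIs). Among cells low in G2/M genes at 30 h, the median S phase sum was 3 UMIs in 215 and 5 UMIs in 268 cells with MEKi, against 13 UMIs in 115 and 17 UMIs in 163 cells with EGF alone. Among cells high in G2/M genes, it was 13 UMIs in 103 and 11 UMIs in 301 cells with MEKi, against 15 UMIs in 108 and 14 UMIs in 162. The gap between MEKi and EGF alone was wider in the G2/M-low cells in both libraries, a difference that was not tested. Cells high in S phase genes and low in G2/M genes made up 13.9% and 11.1% of cells with EGF alone at 30 h and 0.943% and 0.879% with MEKi. With PI3Ki at 30 h, 96.0% and 97.8% of cells were low in both lists. Across the cells of a condition and library, thinned S phase sums correlated with sums of 10 licensing genes at r between 0.45 and 0.71, over sets of at least 137 cells. With sums of the G2/M list r lay between 0.34 and 0.62, apart from EGF alone at 30 h (0.11 and -0.06). These values are a description, since cells of a library share its depth and capture.

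**Figure D5:**
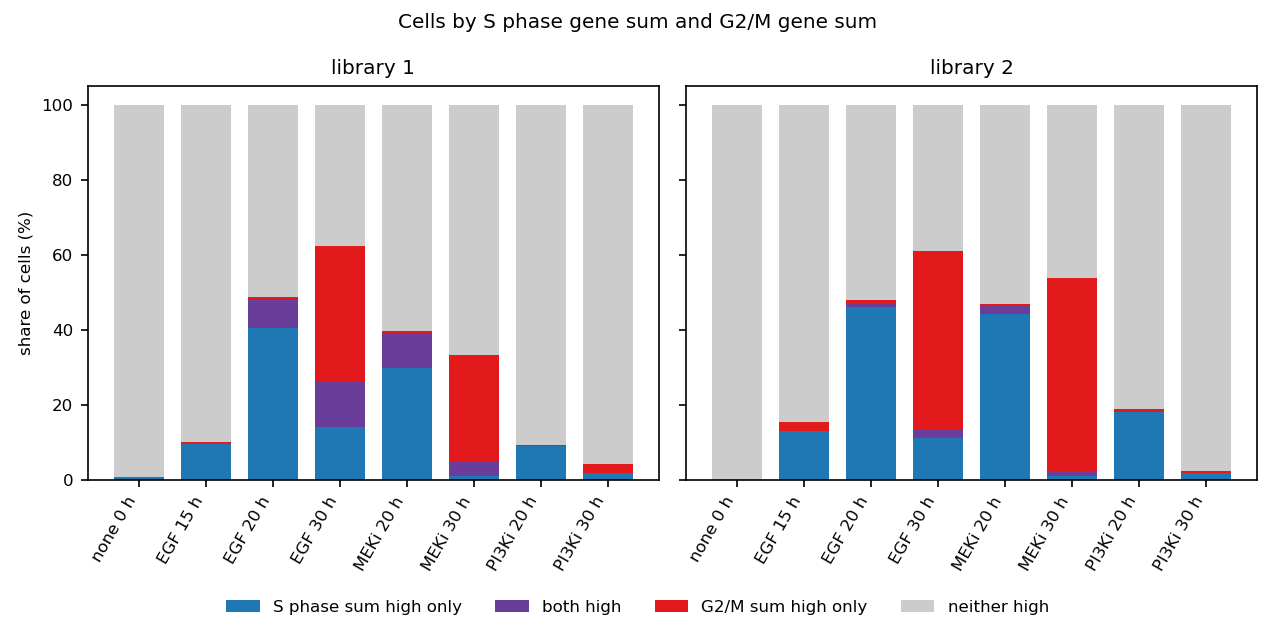
Share of cells in each condition that were high in the S phase sum only, high in the G2/M sum only, high in both or in neither, in each library. With EGF alone at 30 h 37.7% and 39.1% of cells were in neither state, against 66.7% and 46.2% with MEKi and 96.0% and 97.8% with PI3Ki.

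Other genes of DNA synthesis were counted from a list of 64, of which 63 were tested. With MEKi at 30 h 36 were lower and none higher (median -0.47), with PI3Ki at 20 h 35 were lower and 2 higher (median -0.46), and with PI3Ki at 30 h 45 were lower and 2 higher (median -0.72). Of all genes tested, 19% were called lower and 18.9% higher with MEKi at 30 h. The shares were 11.9% and 11.4% with PI3Ki at 20 h, and 20% and 19.7% with PI3Ki at 30 h. CDCA7 (-1.56) and DNMT1 (-1.45), the maintenance DNA methyltransferase that UHRF1 recruits, were the lowest with MEKi at 30 h. POLD4, the small subunit of polymerase delta, was higher with PI3Ki at 20 h (1.97) and at 30 h (2.47). Of 10 licensing genes, which load the MCM ring, 10 were lower with MEKi at 30 h (median -1.12), 8 with PI3Ki at 20 h and 9 with PI3Ki at 30 h. The shares of all genes called lower, given above, were 19%, 11.9% and 20%. Of the 20 G2/M genes, 6 were higher and 2 lower with MEKi at 30 h than with EGF alone (median 0.06), where 18.9% and 19% of all genes were, and all 20 were lower with PI3Ki at 20 h (median -1.06) and at 30 h (median -2.59), where 11.9% and 20% of all genes were.

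Over the 8 condition means, single genes resembled the mean of the 41 to different degrees, with Pearson r from 0.64 for RPA3 and 0.65 for RRM1 to 0.99 for ATAD2, an AAA ATPase with a bromodomain. Among genes of at least 20 CPM that are not members, DNAJC9, a co-chaperone of histones, came closest to that mean pattern (r = 0.992). BRCA1 (0.988), MRPS6 (0.985), GGCT (0.985) and SUPT16H, a subunit of the histone chaperone FACT (0.980), followed. Nearest to PCNA were DSN1 (0.985) and MCM4 (0.981), to GINS2 HSD17B12 (0.997) and MCM6 (0.982), to DUT MYBL2 (0.991), and to NASP MCM7 (0.974) and MCM4 (0.972). The nearest gene to POLD3 was SSBP1 (0.983), to RPA3 TRAF7 (0.965), to USP1 MYBL2 (0.972) and to UNG CASP8AP2 (0.961). These rest on 8 means from 2 libraries.

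Set beside the promoter letters, the 22 genes with an E2F-type match had a median log2 fold change of -0.99 with PI3Ki at 20 h, and the 12 without one had -0.43. The values were -1.43 and -0.61 with PI3Ki at 30 h, and -0.86 and -0.73 with MEKi at 30 h. The ranges of both sets overlapped in every case, for example -2.12 to -0.12 with a match and -1.45 to -0.20 without at 20 h with PI3Ki. Some genes overlap a neighbour on the other strand (TYMS and ENOSF1, RFC4 and EIF4A2, RFC5 and WSB2, RPA3 and UMAD1, GINS2 and GSE1, CHAF1A and UBXN6) or on the same strand (CHAF1B and MORC3, PRIM1 and NACA, FEN1 and FADS2). The sources used here do not say whether counting used strand, so how reads of such pairs were assigned is not known. DUT and PCNA have 8 and 3 named pseudogenes in the annotation, none of which is listed in both tables.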

How the data were processed

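The authors deposited raw UMI counts per gene and cell and a table of sample tags and conditions. Per the submitters' processing notes, Cell Ranger 3.0.2, Seurat and build GRCh38 were used. For the tag rule, cell filter, annotation release and strand setting, nothing is stated in the labels or headers. Per the labels, conditions of a replicate were tagged with the BD Single-Cell Multiplexing Kit, pooled, fixed in methanol and frozen. The deposited tag tables called 4848 of 8641 and 2478 of 6161 barcodes doublets, and the count tables hold none of them. Tags do not show a pair of cells from 1 condition, so the decile of cells with the most UMIs was left out as an alternative.

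Counts were summed per library and condition (16 sums) and fitted with edgeR 4.0.16 in R 4.3.3 (filterByExpr, TMM, quasi-likelihood F test, library as a block, 7 residual degrees of freedom), with Benjamini-Hochberg adjustment over 11147 genes. The block follows from the labels. Deviations from condition means correlated between sums of the same library at a median r of 0.588 (0.281 to 0.677 over 28 pairs of conditions, 4706 genes). The genes, lists and tests were chosen with earlier results of these data known. Genes named in a comparison are the 3 or 4 lowest and highest, those called against the majority, and the member of highest mean CPM in each of 8 roles. Other genes are named as examples of a count and were chosen after their values were seen. Alternatives were DESeq2 1.42.0, library totals, no filter on low counts, no block, single sums left out and other thinning depths. Promoters came from RefSeq and gene positions from GENCODE v29.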

Additional observations from a re-analysis of the deposited data

Results flagged for a closer look

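These results stand here because an inhibitor's effect differed between 20 h and 30 h by an interaction test in edgeR's quasi-likelihood fit, and no explanation was weighed. For the MEK inhibitor 21 of the 41 genes differed, all with a lower effect at 30 h. The largest differences on the log2 scale were -1.84 in CLSPN, -1.78 in CDC45, -1.58 in WDR76 and -1.56 in FAM111B, and each was negative in both libraries. For the PI3K inhibitor 7 of the 41 genes differed, with -1.66 in CDC45 and -1.02 in TYMS, also negative in both libraries. Without the replicate block the counts were 5 and 0, CDC45 had an adjusted p of 0.073 and TYMS of 0.12 for the PI3K inhibitor. Over all genes the MEK inhibitor interaction then went from 325 higher and 297 lower to 19 and 17. The PI3K inhibitor interaction went from 268 and 362 to 5 and 1.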

How the results depend on the processing

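No called value of a named gene changed sign under the alternatives run. Of the members' medians, those for MEKi at 20 h (-0.06 to 0.07 over the alternatives) and for PI3Ki at 20 h against EGF at 15 h (below 0 only without EGF 15 h replicate 1) changed sign. With the library block left out (no replicate block), called members numbered 15 for EGF at 20 h against 15 h, 8 for EGF at 30 h against 20 h, 0 for MEKi at 20 h, 20 and 12 for MEKi against PI3Ki at 20 h and 30 h, 4 for PI3Ki at 20 h against EGF at 15 h, 13 for PI3Ki at 30 h against 20 h, 6 for PI3Ki at 30 h against unstimulated cells, and 5 and 0 for the interactions of MEKi and of PI3Ki with time. DESeq2 gave 0 for MEKi at 20 h, 7 for PI3Ki at 20 h against EGF at 15 h, 11 and 6 for MEKi and PI3Ki at 30 h against unstimulated cells and 3 for the PI3Ki interaction. Calls over all genes fell in every comparison without the block and with DESeq2. For EGF at 20 h against 15 h they went from 383 higher and 185 lower to 71 and 17 without the block. For EGF at 30 h against 20 h they went from 503 and 365 to 99 and 66. Without the decile of cells with the most UMIs, 1 member was called for MEKi at 20 h and 4 for the PI3Ki interaction. Library totals gave 11 for the latter. The main counts of 35 for MEKi at 30 h and 31 and 37 for PI3Ki at 20 h and 30 h stayed within 1.5 times under these settings, at 25 to 35, 23 to 34 and 33 to 39.

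Leaving out 1 sum at a time gave 2 to 27 members for EGF at 15 h against unstimulated cells (lowest without unstimulated replicate 1), 6 to 31 for EGF at 20 h against 15 h (lowest without EGF 15 h replicate 1), 11 to 17 for EGF at 30 h against 20 h (lowest without EGF 30 h replicate 2), 0 to 1 for MEKi at 20 h, 26 to 33 for MEKi at 30 h, 20 to 28 for PI3Ki at 20 h and 34 to 36 at 30 h. It gave 20 to 29 and 14 to 18 for MEKi against PI3Ki at 20 h and 30 h, 10 to 33 and 1 to 13 for MEKi and PI3Ki at 20 h against EGF at 15 h, 29 to 36 and 17 to 23 for MEKi and PI3Ki at 30 h against 20 h, 0 to 18 and 0 to 13 for MEKi and PI3Ki at 30 h against unstimulated cells, and 15 to 24 and 3 to 12 for the interactions of MEKi and PI3Ki. The lone sum left in a condition is then assumed to vary like the others. Without replicate 1 of unstimulated cells, of EGF at 15 h or of PI3Ki at 20 h, calls over all genes fell too. Whether the loss of called members there went beyond the loss over all genes was not tested. Library totals moved the split of all genes called higher and lower to 511 and 134 for EGF at 20 h against 15 h, 409 and 983 for MEKi at 20 h, 1687 and 907 for MEKi against PI3Ki at 20 h, 804 and 1412 for PI3Ki at 20 h against EGF at 15 h, 922 and 1569 for MEKi at 30 h against 20 h, 428 and 902 for PI3Ki at 30 h against 20 h, 1411 and 744 for MEKi at 30 h against unstimulated cells, and 214 and 622 and 195 and 591 for the interactions of MEKi and PI3Ki. The cause of these changes was not tested, beyond the fewer sums or cells in the fit.

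The mean share of high cells was 14.0% without thinning at 15 h (11.3% thinned), 49.9% at 20 h with EGF (47.5%) and 1.59% with PI3Ki at 30 h (1.75%). At 5000 UMIs it was 5.76% with MEKi (3.50%) and 1.42% with PI3Ki at 30 h. The planned search for a PCNA-binding box was not run. Unstimulated and 15 h sums of library 2 are shallow (213208 and 635354 UMIs), which limits what can be called against them.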
